A study of Mus musculus with 4 samples.

Results

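Hedgehog signalling was described here through 9 genes in granulosa cells (GCs), which line the ovarian follicle and nurse its oocyte. The genes were taken by symbol: the ligands Dhh and Ihh, the receptor Ptch1, the ligand-binding inhibitor Hhip, the signal transducer Smo, the GLI inhibitor Sufu and the transcription factors Gli1, Gli2 and Gli3. All 9 had a single row among the 55385 genes of the count table, and all 9 passed the filter on low counts. RNA came from GCs of preantral follicles, taken at 12 to 14 days of age from females of the Kunming mouse strain, dissected mechanically and cultured singly for 6 days. The NT4 group had neurotrophin-4 (NT-4) in the medium and the Control group did not, with 2 libraries in each. FSH, insulin, transferrin, fetuin and albumin were in the medium of both groups. The study chose a single NT-4 dose from several before its later experiments. The labels of these libraries repeat no dose and give no number of follicles. The GCs were what remained after removal of the oocyte, without sorting, so other somatic cells of the follicle could be present.

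In the Hedgehog pathway, a secreted ligand binds PTCH1, which otherwise holds SMO inactive. Active SMO releases GLI factors from SUFU at the primary cilium, so that GLI2 and GLI3 act less as repressors and more as activators. Gli1, Ptch1 and Hhip are themselves switched on by the pathway and are widely used as its readout, and PTCH1 and HHIP then bind ligand and damp the signal. In the growing ovary, GCs are known as the source of DHH and IHH, while theca precursors and stroma around the follicle are the main responders.

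Of these 9 genes, none differed between the groups past the adjusted threshold. What the libraries showed was an order of levels, with Ihh and Smo high and the GLI factors low, and uneven values between libraries of a group. Dhh was low in NT4 2 alone, and Ihh was higher in both libraries numbered 2. Ptch1 and Gli1 were highest in NT4 1, as were 26.5% of all tested genes. Gli3 alone of the 9 had groups that did not overlap, being lower in NT4, as 12.7% of all genes were.

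The libraries held 49520092 to 78704020 counts, an estimated 12380023 to 19676005 read pairs. Of counts from 1 to 12, 45.4% to 46.2% were at 4, 8 or 12, so 1 read pair was taken as about 4 counts. The other low counts were not at these values, so read pairs, floors and counting intervals are approximate. The floor of 3 read pairs lay at 0.156 to 0.239 CPM (counts scaled to 1000000 per library, with TMM factors). The 12 granulosa markers, among them Foxl2, Fshr, Amh and Cyp19a1, were all at or above that floor in every library and summed to 12067 to 18927 CPM. Markers of other cells were present too. Of 8 theca markers 7 were at or above the floor in every library, with Cyp17a1, the androgen-making enzyme of theca cells, at 72.2 to 173 CPM. All 8 stroma and fibroblast markers were above it and summed to 972 to 1467 CPM. Summed levels of endothelial markers were 24 to 36.5 CPM, of oocyte markers 69.8 to 98 CPM, and of macrophage and surface epithelium markers under 4 CPM, with Tyrobp, Krt19 and Upk1b at 0 counts in every library. Granulosa markers were thus present as labelled, beside those of theca and stroma. In such bulk samples, fewer cells of a type and less RNA per cell cannot be told apart.

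The start regions of 8 of the 9 genes were read from RefSeq (GRCm38.p6, 250 bases before to 50 after the start), all but Gli1. They were searched on both strands for the GLI consensus GACCACCCA, its core ACCACCC (which lies within it), the SF-1 half-site AAGGTCA, the GC box GGGCGG, the TATA box TATAAA and the CCAAT box. The full GLI letters were found in 0 of the 8 windows and in 0.253% of all 32851 windows. The core was found in Gli2 alone, against 4.61% of all windows. The GC box was found in 7 of the 8, all but Smo, against 35.7% of all windows. CCAAT was found in Sufu alone (37.4% of all windows), and the SF-1 half-site (4.72%) and TATA box (13.6%) in none. These matches describe letters only. No match means that the letters are not in this window. The windows of both ligands, whose values went opposite ways between the NT4 libraries, and of Gli2, with the GLI core, are shown. Every match is in capitals, 5′ to 3′ on the minus strand at chr15:98898491-98898790, chr1:74951623-74951922 and chr1:119053570-119053869.

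Dhh: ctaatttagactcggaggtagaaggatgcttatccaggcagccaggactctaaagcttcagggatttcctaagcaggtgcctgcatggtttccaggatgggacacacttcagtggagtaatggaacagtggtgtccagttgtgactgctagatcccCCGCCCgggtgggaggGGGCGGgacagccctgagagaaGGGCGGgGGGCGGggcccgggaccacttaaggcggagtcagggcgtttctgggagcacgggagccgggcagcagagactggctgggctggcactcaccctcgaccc

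Ihh: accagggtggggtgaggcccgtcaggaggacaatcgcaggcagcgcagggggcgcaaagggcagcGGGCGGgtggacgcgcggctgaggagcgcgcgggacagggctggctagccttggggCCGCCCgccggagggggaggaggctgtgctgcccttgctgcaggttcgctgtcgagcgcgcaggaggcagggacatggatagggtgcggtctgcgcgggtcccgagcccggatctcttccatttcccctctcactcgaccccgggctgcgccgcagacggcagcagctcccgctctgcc

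Gli2: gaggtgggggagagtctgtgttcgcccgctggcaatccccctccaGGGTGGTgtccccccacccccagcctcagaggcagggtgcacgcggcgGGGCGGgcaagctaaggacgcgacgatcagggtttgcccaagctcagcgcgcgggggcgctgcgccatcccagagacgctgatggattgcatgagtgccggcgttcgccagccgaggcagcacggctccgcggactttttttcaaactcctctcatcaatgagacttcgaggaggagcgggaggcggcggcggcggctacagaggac

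In the Dhh window 4 GC boxes stand close together just before the start, and 61.7% of the bases are G or C. The Ihh window has 2 GC boxes and 72.7% G or C, and the Gli2 window 67.3%, against a median of 52.7% over all windows. CpG pairs numbered 12 in Dhh, 30 in Ihh and 28 in Gli2, where the median window had 7.

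Levels between genes were compared per kilobase of exon, with exons of all transcripts of a gene merged. Ihh was at 50.8 ± 17.2 CPM per kilobase (SD, n = 4 libraries) and Smo at 41.7 ± 2.05, and their ranges overlapped. Dhh followed at 14.6 ± 5.66, Sufu at 11.4 ± 1.10 and Ptch1 at 9.87 ± 2.34, each overlapping the next. Hhip lay below them at 3.07 ± 0.193. Gli1 at 1.99 ± 0.430 and Gli2 at 1.68 ± 0.140 overlapped, and Gli3 was lowest at 1.16 ± 0.135. Ranges did not overlap between Smo and Dhh, Ptch1 and Hhip, Hhip and Gli1, or Gli2 and Gli3. With the longest transcript as length, Sufu stood above Dhh, Hhip and Gli1 overlapped, and Gli1 no longer overlapped Gli2.

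**Figure D1:**
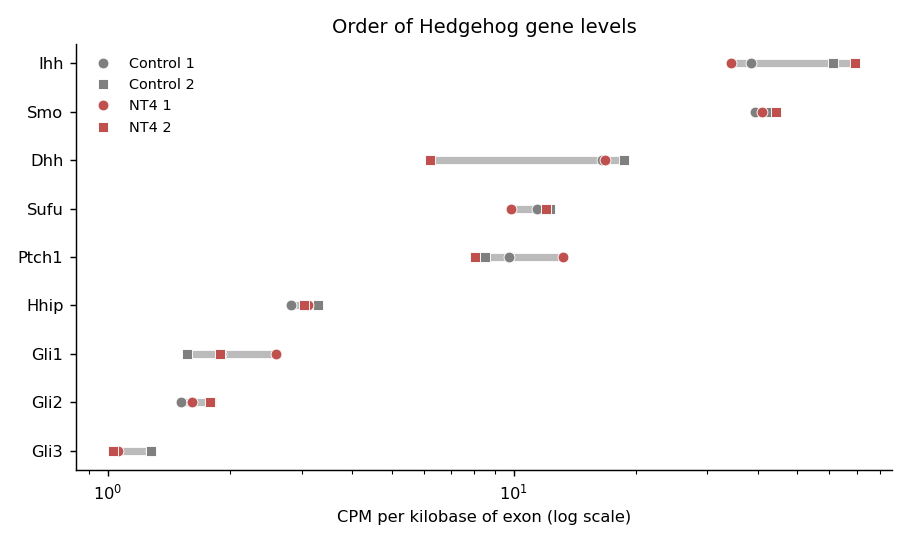
CPM per kilobase of exon on a log axis for the 9 genes, ordered by their mean, with 1 point per library and a grey bar from the lowest to the highest. Ihh and Smo lie at 34.3 to 69.5, the 3 GLI factors at 1.03 to 2.59, and Dhh has the widest bar with NT4 2 at its low end.

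Ligands were taken first. Dhh (ENSMUSG00000023000, GRCm38 chr15:98891152-98898540, 2 transcripts) encodes desert hedgehog, the ligand also made by Sertoli cells of the testis. It measured 72.8 (Control 1), 82.3 (Control 2), 74.1 (NT4 1) and 27.3 (NT4 2) CPM. The other libraries were alike and NT4 2 was far below them. The 95% counting interval (exact Poisson on estimated read pairs) was 25 to 29.7 CPM in NT4 2 and 69.8 to 78.4 in NT4 1. Such intervals cover counting error only, since PCR copies are not independent molecules. Group means were 77.5 ± 6.71 CPM in Control and 50.7 ± 33.1 in NT4 (SD, n = 2), and the groups overlapped. The log2 fold change (NT4 over Control) was −0.61 (SE 0.45), and edgeR's quasi-likelihood test gave an adjusted p of 0.9999. It was −0.067 without NT4 2 and −1.51 (SE 0.17) without NT4 1, where the unadjusted p was 0.00049 and the adjusted p 0.341. A fit with 1 NT4 library takes its spread from the Control pair and assumes that the lone library would vary alike.

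The fall of Dhh within the NT4 group was set beside other genes. Its log2 difference of NT4 2 over NT4 1 was −1.44, and 294 of 14334 genes at a mean of at least 1 CPM (2.05%) had NT4 libraries as far apart or farther. The Control libraries differed by 0.18. Of the 12 granulosa markers 8 were highest in NT4 2, among them Foxl2 at 253 CPM, Fshr at 162 and Cyp19a1 at 87. The remaining markers included 2 that were lowest in NT4 2, Amh at 91.5 CPM against 151 to 391 in the other libraries and its receptor Amhr2 at 205 against 217 to 267. Exons of Dhh overlap those of Rhebl1 on the same strand by 546 bases and of the antisense gene Gm49442 by 1107 bases, so its count is uncertain. These genes together held 4.24 to 7.1 CPM, and the sum with Dhh was 78.7, 88.5, 78.3 and 34.4 CPM in Control 1, Control 2, NT4 1 and NT4 2. NT4 2 was again the low library in the sum, with a log2 fold change of −0.57.

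Ihh (ENSMUSG00000006538, chr1:74945315-74951672, 2 transcripts) encodes Indian hedgehog, which in other tissues sets the pace of cartilage growth. It measured 117 (Control 1), 186 (Control 2), 104 (NT4 1) and 212 (NT4 2) CPM. Both libraries numbered 2 exceeded both numbered 1, in either group. The NT4 libraries were at least as far apart for 5.09% of the 14334 genes, and the Control libraries for 9.01%. Means were 152 ± 49.0 CPM in Control and 158 ± 76.0 in NT4 (SD, n = 2). The log2 fold change was 0.061 (SE 0.39), and edgeR's quasi-likelihood test gave an adjusted p of 0.9999. Its sign followed the library left out, at −0.54 without NT4 2 and −0.24 without Control 1 against 0.44 without Control 2 and 0.48 without NT4 1. Summed granulosa markers had the same order of libraries, at 13755 (Control 1), 17062 (Control 2), 12067 (NT4 1) and 18927 (NT4 2) CPM. Much of that sum was Inha, at 5821 to 8870 CPM. Of the 12 markers 8 were highest in NT4 2, while Amh, Amhr2 and Kitl were highest in NT4 1 and Nr5a2 in Control 2. The part of these markers in the values of Ihh was not tested.

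Per kilobase, the share of Dhh in the pair of ligands was 30.1% and 23.4% in the Control libraries 1 and 2, and 33.0% and 8.20% in the NT4 libraries 1 and 2. With the longest transcript as length the shares were 26.6%, 20.4%, 29.2% and 6.98%. Their sum was 54.9 and 79.8 CPM per kilobase in Control and 51.1 and 75.7 in NT4. Total ligand thus split by library number and not by group, and only NT4 2 had little Dhh in it. Shh, the third mammalian ligand and the one of limb and neural tube, had 4 counts in Control 1, 8 in NT4 1 and 0 in the other libraries. It was at or under the floor throughout and was not tested.

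**Figure D2:**
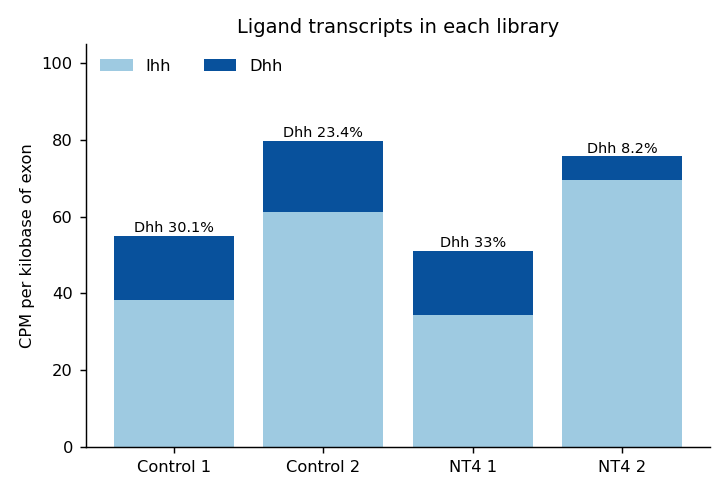
Stacked bars of Ihh and Dhh in CPM per kilobase of exon for each library, with the share of Dhh printed above. The sum is 51.1 to 54.9 in the libraries numbered 1 and 75.7 to 79.8 in those numbered 2, and the Dhh share falls to 8.20% in NT4 2.

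Ptch1 (ENSMUSG00000021466, chr13:63508328-63573598, 10 transcripts) is both the receptor that restrains SMO and a target of the GLI factors. It measured 138 (Control 1), 121 (Control 2), 187 (NT4 1) and 114 (NT4 2) CPM. NT4 1 was the high library and NT4 2 was the lowest, so the groups overlapped. For 10.8% of the 14334 genes the NT4 libraries were at least as far apart. Means were 130 ± 12.6 CPM in Control and 151 ± 52.0 in NT4 (SD, n = 2), with a log2 fold change of 0.22 (SE 0.25). Its adjusted p was 0.9999 in edgeR. It was −0.19 without NT4 1 and 0.53 without NT4 2, where its unadjusted p was 0.0189 and its adjusted p 0.9998, again with the spread of the Control pair alone.

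Hhip (ENSMUSG00000064325, chr8:79965851-80058006, 2 transcripts) encodes a membrane protein that captures ligand. It measured 25.7 (Control 1), 29.9 (Control 2), 28.2 (NT4 1) and 27.6 (NT4 2) CPM. Among the readout genes it was the steadiest, and both NT4 libraries lay between the Control libraries. The log2 ratio of NT4 over Control was 0.0047 (SE 0.15), a value that was −0.015 with library totals in place of TMM. Hhip was not raised in NT4 1, where Ptch1 and Gli1 were highest.

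Smo (ENSMUSG00000001761, chr6:29735503-29761365) encodes the membrane protein that passes the signal into the cell. It measured 221 (Control 1), 237 (Control 2), 231 (NT4 1) and 249 (NT4 2) CPM. The log2 ratio of NT4 over Control was 0.064 (SE 0.12), the smallest SE of the 9 genes, and 0.007 to 0.12 when each library in turn was left out. Sufu (ENSMUSG00000025231, chr19:46396896-46488804) encodes the protein that holds GLI factors in the cytoplasm. It measured 87.8 (Control 1), 94.8 (Control 2), 75.6 (NT4 1) and 92.1 (NT4 2) CPM, with NT4 1 the low library. The log2 ratio of NT4 over Control was −0.12 (SE 0.14), and 0.0056 without NT4 1.

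**Figure D3:**
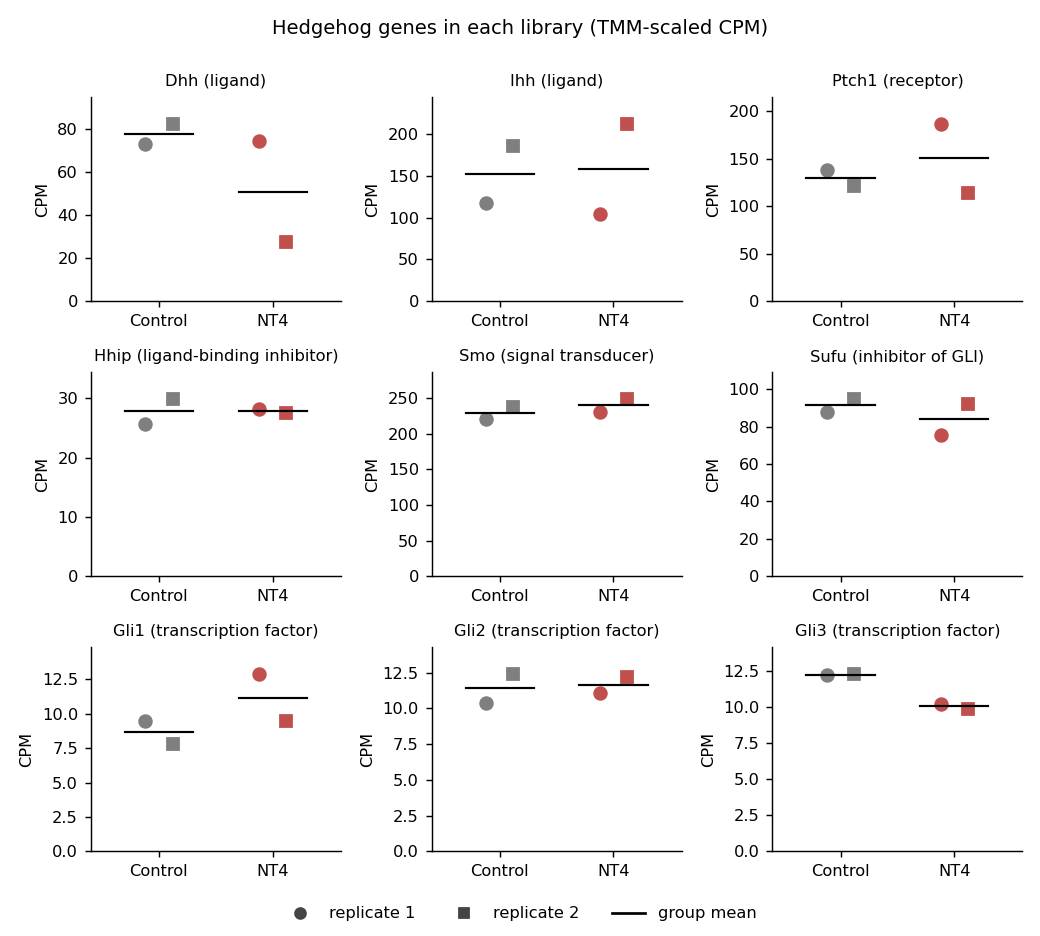
TMM-scaled CPM of each gene, with Control in grey, NT4 in red, circles for replicate 1, squares for replicate 2 and a line at the group mean. Gli3 is the gene with both NT4 points (10.2 and 9.90 CPM) below both Control points (12.2 and 12.3 CPM), and Dhh has 1 low point at 27.3 CPM.

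The GLI factors were then examined. Gli1 (ENSMUSG00000025407, chr10:127329882-127341974) is an activator made in response to the pathway. It measured 9.48 (Control 1), 7.82 (Control 2), 12.9 (NT4 1) and 9.46 (NT4 2) CPM. NT4 1 was highest, and NT4 2 lay between the Control libraries. The NT4 libraries were as far apart or farther for 24.7% of the 14334 genes. The counting interval was 11.2 to 14.9 CPM in NT4 1 and 7.86 to 11.3 in Control 1, from an estimated 202 and 119 read pairs. The log2 fold change was 0.37 (SE 0.23), and edgeR's quasi-likelihood test gave an adjusted p of 0.9999. It was 0.12 without NT4 1 and 0.58 without NT4 2. Gli2 (ENSMUSG00000048402, chr1:118834132-119053619), the main activator before Gli1 is made, measured 10.4 (Control 1), 12.4 (Control 2), 11.1 (NT4 1) and 12.2 (NT4 2) CPM. The log2 ratio of NT4 over Control was 0.037 (SE 0.19), and both NT4 libraries lay between the Control libraries.

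Gli3 (ENSMUSG00000021318, chr13:15463235-15730026) acts mostly as a repressor when no ligand is present. It measured 12.2 (Control 1), 12.3 (Control 2), 10.2 (NT4 1) and 9.90 (NT4 2) CPM. Both NT4 libraries were below both Control libraries, and the difference of the means exceeded the SD of 0.0558 CPM in Control and 0.204 in NT4. The log2 fold change was −0.29 (SE 0.16), with an unadjusted p of 0.134 and an adjusted p of 0.9999 (edgeR). It kept its direction in all alternatives tried, from −0.32 to −0.27. Counting error was wider than the SD, with intervals of 8.68 to 11.9 CPM in NT4 1 and 10.4 to 14.4 in Control 1, which overlap. Of the 3 GLI factors per kilobase, Gli3 made up 27.2% and 27.6% in Control and 20.2% and 21.9% in NT4, while Gli1 made up 40.5% and 33.7% in Control and 49.2% and 40.2% in NT4.

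By edgeR's quasi-likelihood test, 0 of the 9 genes passed an adjusted p of 0.05, as did 0 (0%) of the 19259 genes tested, with 0 of the 9 and 383 of all genes at an unadjusted p under 0.05. The DESeq2 Wald test called 0 of the 9 and 63 of all genes. The criterion of the study was more than a 2-fold change either way together with an unadjusted p below 0.05. With all libraries 0 of the 9 met it, where 1.08% of all genes did. Groups did not overlap for 1 of the 9, lower in NT4, and for 0 higher in NT4, beside 12.7% and 13.4% of all genes. That is no more than the background. The median log2 fold change of the 9 was 0.037, with 6 positive and 3 negative, against 0.0045 over all genes. An exact permutation test of 2 libraries against 2 cannot go below a two-sided p of 0.333. The smaller p-values of edgeR rest on its model, which estimates the spread between these libraries with information shared across genes. The study describes the libraries of each group as separate experiments, and the labels do not say which animals or experiment a library number stands for.

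**Figure D4:**
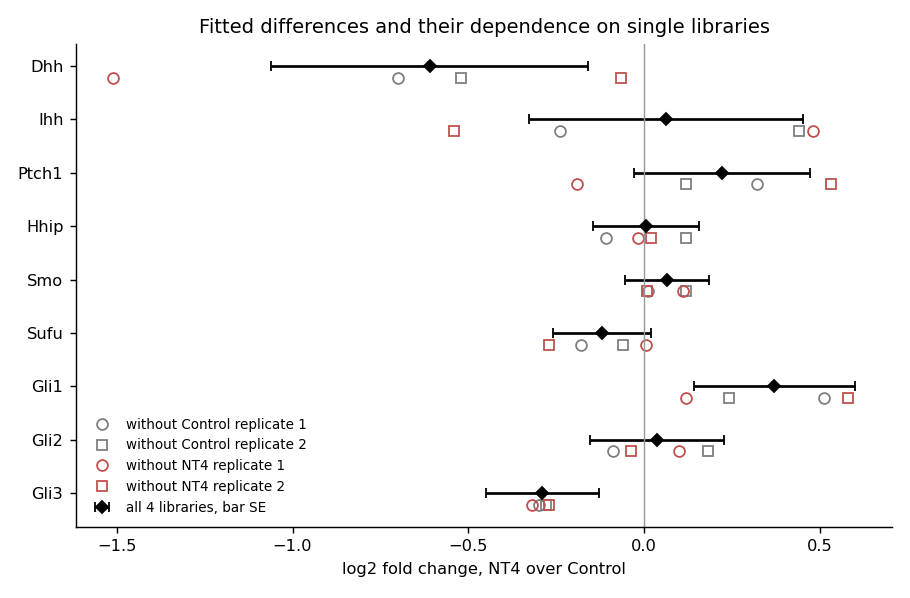
Log2 fold changes of NT4 over Control for the 9 genes, with diamonds and SE bars for all 4 libraries and open symbols for fits that leave out 1 library. Gli3 stays between −0.32 and −0.27, while Dhh spans −1.51 to −0.067 and Ihh −0.54 to 0.48.

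The rest of the pathway was read from 42 further genes in 5 roles, of which 40 were tested and Shh and Foxf2 were too low. Of the 40, 0 passed the adjusted threshold in edgeR (0 in DESeq2) and 0 met the criterion of the study, 1 had an unadjusted p under 0.05, and 20 had a positive and 20 a negative log2 fold change, with a median of 0.0034. Over all 19259 genes 383 had such a p. Groups did not overlap for 4 of the 40 higher and 2 lower in NT4, where 13.4% and 12.7% of all genes did so.

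Receptors and co-receptors were the role with the highest median, 0.29, with 5 of 6 positive and 3 not overlapping, all higher in NT4 (13.4% of all genes). Lrp2, an endocytic receptor, had the smallest p and was at 1.59 and 2.18 CPM in Control against 3.55 and 3.33 in NT4 (log2 fold change 0.86, SE 0.30, unadjusted p 0.0332, adjusted p 0.9999 in edgeR's test). Gas1, a co-receptor that aids ligand binding, was at 3.96 and 3.66 CPM in Control and 5.29 and 5.01 in NT4 (0.43, SE 0.22). Gpc3, a glypican that competes with PTCH1 for ligand, was at 36.2 and 27.4 CPM in Control and 44.5 and 34.2 in NT4 (0.31, SE 0.21), and the groups overlapped. Cdon, another co-receptor, was at 38.5 and 47.7 CPM in Control and 37.9 and 41.4 in NT4. Summed stroma and fibroblast markers were also higher in both NT4 libraries than in either Control library, and their part in these values was not tested.

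Genes for ligand release had a median of −0.10 over 5 tested. Disp1, which releases lipid-modified ligand, was at 36.6 to 42.1 CPM and Scube1 at 19.1 to 24.4 CPM. Cilium genes had a median of −0.036 over 12 tested, with Evc2, a partner of SMO at the cilium base, at 133 to 148 CPM and Kif3a, a motor of ciliary transport, at 35.3 to 40.5 CPM. Kinases and degradation genes had a median of 0.019 over 10 tested, with Prkaca, a catalytic subunit of the kinase that primes GLI processing, at 102 to 127 CPM and Cul3 at 112 to 135 CPM. Targets other than the 9 genes had a median of 0.031 over 7 tested. Ccnd2, a G1 cyclin, was at 404 to 447 CPM, and Mycn was at 51.1 and 81.8 CPM in Control and 51.3 and 71.0 in NT4, higher in both libraries numbered 2 as Ihh was.

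**Figure D5:**
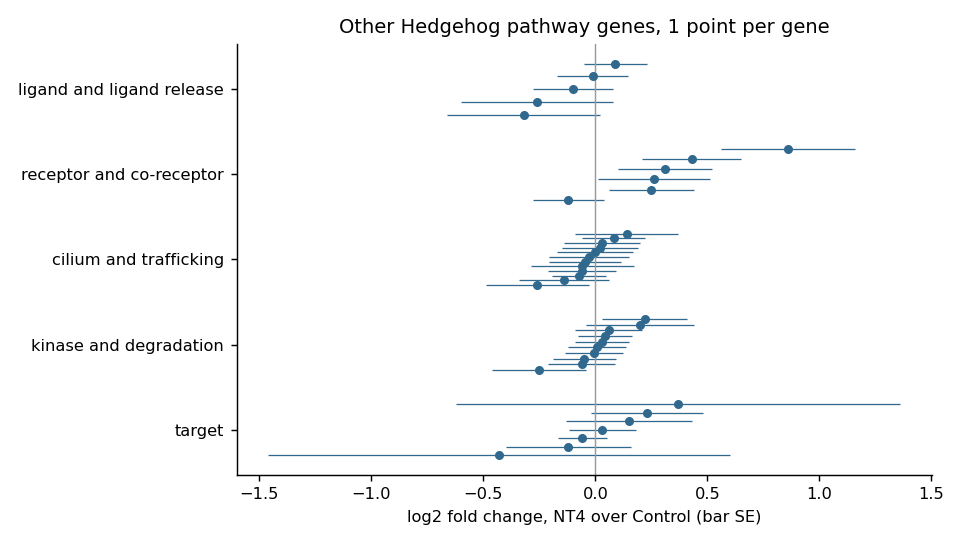
Log2 fold changes of NT4 over Control with SE bars for the 40 tested genes of the wider list, 1 point per gene, grouped by role. Receptors and co-receptors have 5 of 6 points above 0, and each of the other roles has points on both sides of 0.

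Stroma markers were set beside the readout genes. Their summed level was 1027 (Control 1), 972 (Control 2), 1467 (NT4 1) and 1112 (NT4 2) CPM. NT4 1 was thus the highest library as for Ptch1 and Gli1, and as for 26.5% of all tested genes. The match was to that library only, since NT4 2 came next in the stroma sum but was the lowest for Ptch1, at 114 CPM. Of the 8 stroma and fibroblast markers, 7 had a positive log2 fold change and 6 did not overlap between the groups, all higher in NT4 as 13.4% of all genes were, with a median of 0.38. The median was 0.23 without NT4 1 and 0.53 without NT4 2. Col1a1, a fibrillar collagen chain, was at 158 and 157 CPM in Control against 257 and 161 in NT4, and Tcf21, a factor of theca and stroma precursors, at 16.2 and 11.8 against 20.9 and 20.5. Of 5 smooth muscle markers 4 did not overlap, also higher in NT4. All 7 tested theca markers had a positive log2 fold change, with a median of 0.30, and 3 did not overlap, all higher in NT4 as 13.4% of all genes were. These were Cyp17a1 (0.58), the gonadotropin receptor gene Lhcgr (0.28) and Aldh1a1 (0.25). The rest overlapped, among them Insl3, at 5.54 and 14.3 CPM in Control and 9.58 and 16.5 in NT4. The theca markers summed to 3665 and 5125 CPM in Control and 3646 and 6167 in NT4, of which Hsd3b1, which GCs express too, held 2425 to 4650 CPM. The part of other cells in the values of Ptch1 and Gli1 was not tested.

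The genes most like Ptch1 and Gli1 over the 4 libraries were named by the largest difference in centred log2 CPM. For Ptch1 these were Arhgap11a (0.020), Crebl2 (0.030) and Rab7b (0.034), and for Gli1 Ror2 (0.024), Col6a2 (0.035) and Agfg2 (0.036). Col6a2 was at 78.3 and 66.1 CPM in Control and 108 and 76.5 in NT4. Over these 4 libraries, 34 of 12547 protein-coding genes lay within 0.1 of Ptch1 and 33 within 0.1 of Gli1.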

How the data were processed

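RNA of GCs from 2 NT4 and 2 Control libraries was sequenced by the authors as stranded paired-end libraries, trimmed with Cutadapt 1.9, aligned with HISAT2 and assembled with StringTie against Ensembl 99. The submitters' processing notes name mm10 and edgeR. The deposited values are estimated counts per gene as whole numbers, of which the low ones lie often, but not always, at multiples of 4. How counts were derived from StringTie is not given in the sources used here. The single-library files were identical to the columns of the joint table for 4 of 4 libraries, and 0 columns were left unused.

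Counts were fitted in edgeR 4.0.16 (R 4.3.3) by group alone, with TMM scaling, filterByExpr, the quasi-likelihood test and Benjamini-Hochberg adjustment over 19259 genes. The fit was tested on simulated data with the same spread for every gene, so that test does not show how the fit fares with the uneven libraries here. P-values set the group difference against the spread between these libraries only, which edgeR estimates with information shared across genes. CPM are on TMM-scaled library sizes. Exon lengths, positions and overlaps are from GENCODE M21 (GRCm38), promoters from RefSeq. Intervals (95%) and floors rest on counts divided by 4 and cover counting error only.

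The 9 genes and all lists were chosen with earlier results of these data known. Named were the 9 genes and Shh, and of the wider list the 3 smallest p-values and the 2 highest levels per kilobase in each role. Named for likeness were the 3 protein-coding genes nearest to Ptch1 and to Gli1. A further gene that the rule names is not reported here. Marker genes and the ranges beside them were named after their values were seen. Alternatives were other scalings, other filters on low counts, the DESeq2 1.42.0 Wald test, counts divided by 4, a replicate block, leaving out each library, and exon length or longest transcript.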

Additional observations from a re-analysis of the deposited data

How the results depend on the processing

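No gene of the 9 passed the adjusted threshold under any of 12 alternatives, where the lowest adjusted p was 0.341 (Dhh without NT4 1). The criterion of the study was met by 0 of the 9 under each alternative that kept all libraries. Under the alternatives, Dhh alone of the 9 went past a 2-fold change. Its log2 fold change was −1.51 without NT4 1, with a single NT4 library. Of 100 alternative log2 fold changes of the 9 genes, 91 kept their direction and 9 reversed. With library totals Hhip was −0.015, and the median of the wider list was −0.017. Leaving out each library in turn gave −0.54 to 0.48 for Ihh (−0.24 without Control 1), −0.19 to 0.53 for Ptch1, −0.11 to 0.12 for Hhip (−0.019 without NT4 1), 0.007 to 0.12 for Smo, −0.27 to 0.0056 for Sufu, 0.12 to 0.58 for Gli1, −0.089 to 0.18 for Gli2 (−0.038 without NT4 2) and −0.012 to 0.036 for the median of the wider list. The cause was not tested. Groups did not overlap for 1 of the 9 under each of 3 scalings. With the replicate number as a block, 0 of the 9 passed and Dhh was −0.78. Deviations of same-numbered libraries correlated at 0.14 (Pearson) and 0.26 (Spearman) across 19259 genes, which are not independent, and, although the culture groups were run side by side, no label ties a number to a shared experiment, so the pairing was not used. The sum of Dhh with its overlapping genes was chosen after seeing the data. DESeq2 called 63 of all genes and 0 of the 9. The GLI factors had the fewest estimated read pairs of the 9 genes, 119 to 236 in a library, so counting error was largest for them relative to level.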
